A study of Mus musculus with 6 samples.

Results

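Replication-dependent histone genes were followed here in mouse aorta. They were taken as every protein-coding gene of the count table whose GENCODE M21 symbol begins with Hist1h, Hist2h, Hist3h or Hist4h. This gave 67 of 55401 gene IDs; 3 further symbols of that form are pseudogenes and were left out. By class there were 6 genes for the linker histone H1, 18 for H2A, 18 for H2B, 12 for H3 and 13 for H4. On GRCm38, 54 lie on chromosome 13 (Hist1), 10 on chromosome 3 (Hist2), 2 on chromosome 11 (Hist3) and 1 on chromosome 6 (Hist4).

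Aortas of ApoE-/- mice, which lack the apolipoprotein that clears remnant lipoproteins, were compared with aortas of IL16-/-ApoE-/- mice (called double mutants), which also lack the cytokine interleukin-16. By their labels both groups lack Apoe, and both were on a high-fat diet of 24 weeks begun when the mice were 8 weeks old. Each group had 3 libraries, made from RNA captured by its poly(A) tail. The sources used here do not give whether each library is a separate animal or whether aortas were pooled. The p-values therefore rest on the spread among these libraries alone, which may be technical.

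H2A, H2B, H3 and H4 form the protein core around which DNA is wound, and H1 binds the linker DNA between cores. The replication-dependent genes are transcribed mainly during S phase, and most of their mRNAs end in a conserved hairpin instead of a poly(A) tail: the hairpin is bound by SLBP, and the cut behind it is guided by the U7 small nuclear RNA. Some of these genes can also yield polyadenylated mRNA from signals further downstream, a form known from differentiated cells that no longer divide. Replacement histones, such as H3.3 and H2A.Z, come from ordinary polyadenylated mRNAs throughout the cell cycle.

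The hairpin was searched only in the longest annotated protein-coding transcript of each gene, and was found in 45 of the 67 genes. It was taken as 16 bases that begin with GG and end with CC, with a stem of 6 base pairs and a loop of 4 bases. Its letters took 8 forms, of which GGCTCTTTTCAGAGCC was the most frequent (25 genes of H1, H2A, H2B and H3). The next was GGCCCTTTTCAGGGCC, in 7 genes, all of H4. The sites below belong to more abundant members of each class that have a hairpin, and show that the stem letters of H4 differ from those of the other classes. They are not always the most abundant: Hist2h3c1 (H3) and Hist1h4m (H4) have a hairpin and higher means than Hist2h3c2 and Hist1h4h, but are not shown. The hairpin is in capitals with 5 bases on each side, in the sense of the mRNA, from the GENCODE M21 transcripts on GRCm38.
Hist1h1c, H1, chr13:23739507-23739532, plus strand: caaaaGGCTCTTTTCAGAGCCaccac
Hist3h2a, H2A, chr11:58955167-58955192, plus strand: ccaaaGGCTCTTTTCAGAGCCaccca
Hist1h2bg, H2B, chr13:23571838-23571863, plus strand: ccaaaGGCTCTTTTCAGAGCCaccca
Hist2h3c2, H3, chr3:96238480-96238505, minus strand: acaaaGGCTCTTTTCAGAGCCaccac
Hist1h4h, H4, chr13:23531453-23531478, plus strand: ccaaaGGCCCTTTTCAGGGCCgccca
Hist1h4i, H4, chr13:22040961-22040986, minus strand: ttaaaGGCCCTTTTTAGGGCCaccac
The annotated transcript ran on for 840 bases behind the hairpin in Hist1h1c, 1643 in Hist3h2a, 155 in Hist1h2bg, 377 in Hist2h3c2 and 330 in Hist1h4i, but for 46 in Hist1h4h. The transcripts of Hist1h2bc and Hist2h2be, which are among the 5 most abundant members, held no such hairpin and ended 742 and 2192 bases after the stop codon.

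Library totals were 65730552 to 85568269 counts in the ApoE-/- group and 42861980 to 47208779 in the double mutants, and did not overlap. Levels are given as CPM, the count of a gene relative to the library total scaled by TMM factors, so that 3 counts, the most that a count of 0 allows, equal 0.0358 to 0.0698 CPM depending on the library. These limits cover counting error only. Smooth muscle markers were present in every library (Myh11, the smooth muscle myosin heavy chain, at 1158 to 8497 CPM). ApoE-/- 1 stood apart: it carried the female-specific RNA Xist at 474 CPM and the Y-linked Ddx3y at 0.143 CPM, while the other 5 libraries held at most 6.21 CPM of Xist and at least 70.1 CPM of Ddx3y. Il16 was at 15.1 to 28.7 CPM in the ApoE-/- group against 7.93 to 12.2 CPM in the double mutants, and Apoe, which both groups are labelled as lacking, was at 20.9 to 45.0 and 137 to 183 CPM. Il16 did not pass edgeR's test (log2 fold change -1.16, adjusted p = 0.163), whereas Apoe was called higher in the double mutants (log2 fold change 2.34 with SE 0.33, edgeR adjusted p = 0.0369, n = 3 and 3). The sources used here do not give which parts of these genes are deleted. Summed over 5 kidney tubule markers, the level was 0 to 0.0477 CPM in ApoE-/- libraries and 444 to 493 CPM in double mutants. In bulk tissue, fewer cells of a type and less RNA per cell cannot be told apart.

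The histone genes took 0.0217% to 0.0250% of the counts of an ApoE-/- library and 0.0172% to 0.0183% of a double mutant library. Their summed level was 256, 214 and 230 CPM in ApoE-/- 1, 2 and 3 and 172, 179 and 183 CPM in double mutant 1, 2 and 3. Every double mutant library was under every ApoE-/- library (233 ± 21.2 against 178 ± 5.32 CPM, SD, n = 3 each, a ratio of 0.764). The level was very uneven among members: the 5 most abundant, Hist1h1c, Hist1h2bc, Hist2h2be, Hist3h2a and Hist1h2bg, held 88.9% of it. Those 5 summed to 227, 199 and 204 CPM against 151, 158 and 157 CPM, whereas the other 62 summed to 22.9 ± 7.10 against 22.7 ± 2.38 CPM (SD, n = 3 each), a ratio of 0.988 with overlapping groups. The lower sum in the double mutants thus lay in the abundant few. Of the 67 members, 12 had a mean of at least 1 CPM, 33 had a count in all 6 libraries, 11 had under 10 counts over all libraries and 4 had none.

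**Figure D1:**
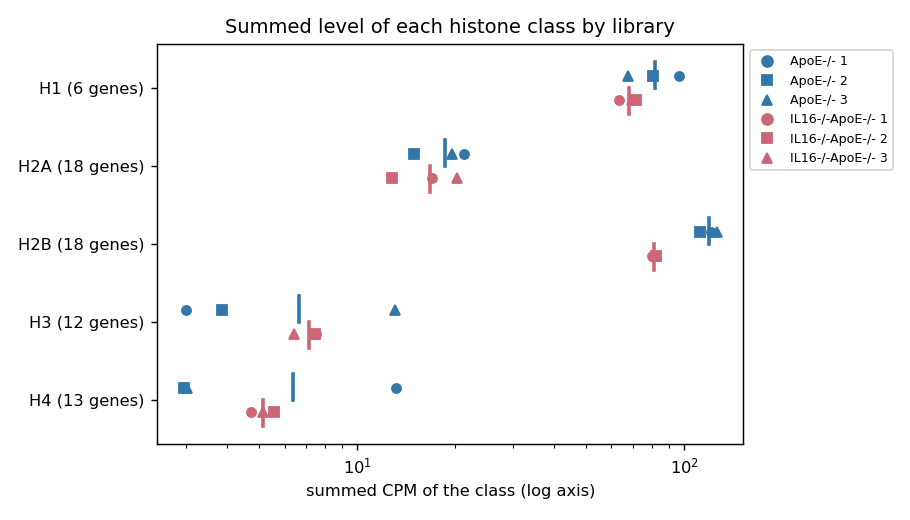
Summed CPM of each histone class (horizontal log axis) in each library; a symbol is 1 library, blue for ApoE-/- and red for double mutants, and a vertical bar is the group mean. The groups are apart for H2B (112 to 126 against 79.6 to 81.9 CPM) and overlap for the other 4 classes.

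Of the 67 members, 26 had enough counts to be tested by edgeR's quasi-likelihood test over 19833 genes. No member passed an adjusted p of 0.05 in either direction, where 1.14% of all tested genes were called higher and 0.0605% lower in the double mutants. At an unadjusted p under 0.05, 1 member was higher and 2 were lower, against 8.87% and 7.03% of all tested genes. The median log2 fold change (double mutant minus ApoE-/-) was -0.22 over the members and -0.05 over all tested genes, with 10 members above and 16 below 0. All double mutant libraries exceeded all ApoE-/- libraries for 1 of the 26 members (14.9% of all tested genes) and lay below them for 4 (11.5% of all tested genes). DESeq2 called 1 member higher, where it called 6.25% of genes, and 1 lower, where it called 2.34%. limma-voom called none, and limma-voom with sample weights called 0 higher (9.39% of genes) and 1 lower (7.49%). With ApoE-/- 1 left out, edgeR called 0 members higher and 2 lower, beside 13.1% and 12.8% of all genes. The 41 untested members had 0 to 67 counts in total over the 6 libraries. Because 34 of the 67 genes share more than 50% of their 50-base stretches with another annotated gene, reads of many members could be split between copies by the counting.

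**Figure D2:**
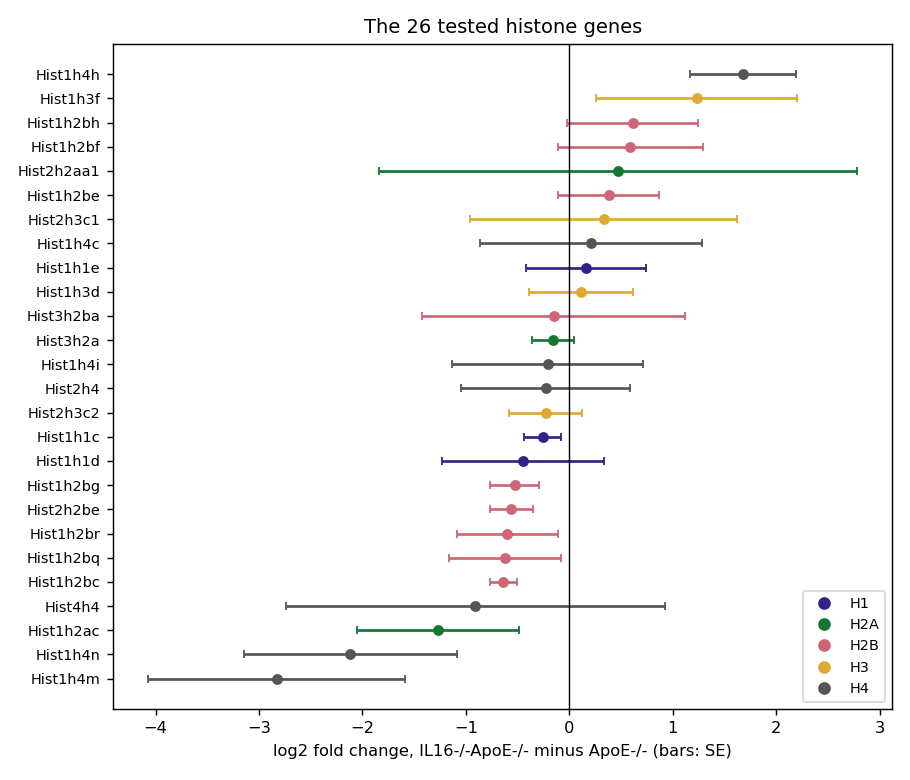
Log2 fold change of each of the 26 tested members (horizontal axis, double mutant minus ApoE-/-; bars are SE), coloured by histone class. Values run from -2.83 (Hist1h4m) to 1.68 (Hist1h4h), and the abundant H2B genes Hist1h2bc, Hist2h2be and Hist1h2bg lie together between -0.64 and -0.53.

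Among the linker histones nearly all of the level came from Hist1h1c, which encodes the H1.2 subtype. It stood at 95.1, 78.4 and 66.2 CPM in ApoE-/- 1, 2 and 3, against 61.9, 70.0 and 67.7 CPM in the double mutants. The groups overlapped, since ApoE-/- 3 lay below 2 double mutant libraries. The fitted log2 difference was -0.26 (SE 0.18, n = 3 and 3), and the adjusted p of edgeR's quasi-likelihood test was 0.487. Hist1h1c shares 8.54% of its 50-base stretches with other genes, fewer than most members. Hist1h1d (0.207 to 1.11 CPM) and Hist1h1e (0.378 to 1.13 CPM) were the other tested H1 genes, with log2 fold changes of -0.45 and 0.16 and overlapping groups. Hist1h1e overlaps Hist1h2be on the same strand. Summed, the H1 class was at 96.7, 80.2 and 67.5 CPM against 63.4, 71.4 and 69.3 CPM.

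The H2A class was led by Hist3h2a, 1 of 2 Hist3 members, at 15.6, 13.6 and 18.3 CPM in ApoE-/- aortas and 15.8, 11.7 and 14.8 CPM in the double mutants. Both groups covered much the same range (log2 fold change -0.16 with SE 0.20, edgeR adjusted p = 0.715, n = 3 and 3). The gene overlaps Trim17 on the same strand and shares 31.5% of its 50-base stretches with other genes, so part of its count may belong to that neighbour. Hist1h2ac was at 1.58, 0.473 and 0.534 CPM against 0.507, 0.441 and 0.116 CPM, with ApoE-/- 1 far above the rest. Its log2 fold change was -1.27 (SE 0.78), the smallest p of its class (adjusted p = 0.456, edgeR, n = 3 and 3). Only 3 of the 18 H2A genes could be tested, and 14 of the 18 share more than 50% of their sequence with another gene. The class summed to 21.3, 14.9 and 19.5 CPM against 17.0, 12.8 and 20.2 CPM.

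H2B was the most abundant class, with 48.9% of the summed member level, and the class whose groups were apart. It summed to 121, 112 and 126 CPM in ApoE-/- 1, 2 and 3, against 79.6, 81.9 and 81.4 CPM in the double mutants (120 ± 7.43 against 81.0 ± 1.23 CPM, SD, n = 3 each, a ratio of 0.676). Most of this was Hist1h2bc, at 91.4, 82.7 and 86.1 CPM against 54.6, 56.6 and 56.3 CPM. Its libraries were tight within each group and far apart between groups. The fitted log2 difference was -0.64 (SE 0.13, n = 3 and 3), and edgeR's quasi-likelihood test gave an adjusted p of 0.0860, which missed the threshold. DESeq2 placed Hist1h2bc past it (-0.63, adjusted p = 2.90e-05), and so did limma-voom with sample weights (-0.59, adjusted p = 0.0181) and edgeR without ApoE-/- 1 (-0.60, SE 0.09, adjusted p = 0.00787). Over 15 alternatives its adjusted p ran from 2.90e-05 to 0.417, and its fold change stayed between -0.66 and -0.59.

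The other abundant H2B genes lay on the same side. Hist2h2be was at 15.8, 17.5 and 24.5 CPM against 12.8, 14.0 and 12.5 CPM, with ApoE-/- 3 highest and no overlap of the groups (log2 fold change -0.56 with SE 0.21, edgeR adjusted p = 0.283, n = 3 and 3). It passed only without ApoE-/- 1 (-0.68, SE 0.19, adjusted p = 0.0432, edgeR), with 0.0432 to 0.617 over the 15 alternatives. None of its 50-base stretches occurs in another annotated gene. Hist1h2bg was at 9.14, 6.51 and 9.11 CPM against 5.92, 5.35 and 5.86 CPM, again without overlap (log2 fold change -0.53 with SE 0.24, edgeR adjusted p = 0.340, n = 3 and 3). It shares 49.7% of its 50-base stretches with other genes, foremost with the more abundant Hist1h2bc. In turn Hist1h2bc shares 30.6%, foremost with Hist1h2bg, so the values of these genes may not be independent. Hist1h2br, at 0.531 to 0.823 CPM against 0.357 to 0.512 CPM, also had groups apart, but 99.8% of its stretches are shared with other genes, Hist1h2bq among them (0.430 to 0.883 against 0.300 to 0.535 CPM). Hist1h2be lay on the other side, at 1.15, 3.01 and 4.08 CPM against 4.08, 2.88 and 3.75 CPM, where ApoE-/- 1 was the lowest and the groups overlapped (log2 fold change 0.38, SE 0.49). Hist1h2bh, at 0.273 to 0.549 against 0.300 to 0.987 CPM, overlapped too. Of the 9 tested H2B genes, 6 had a negative and 3 a positive fold change, and 4 had a mean of at least 1 CPM.

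**Figure D3:**
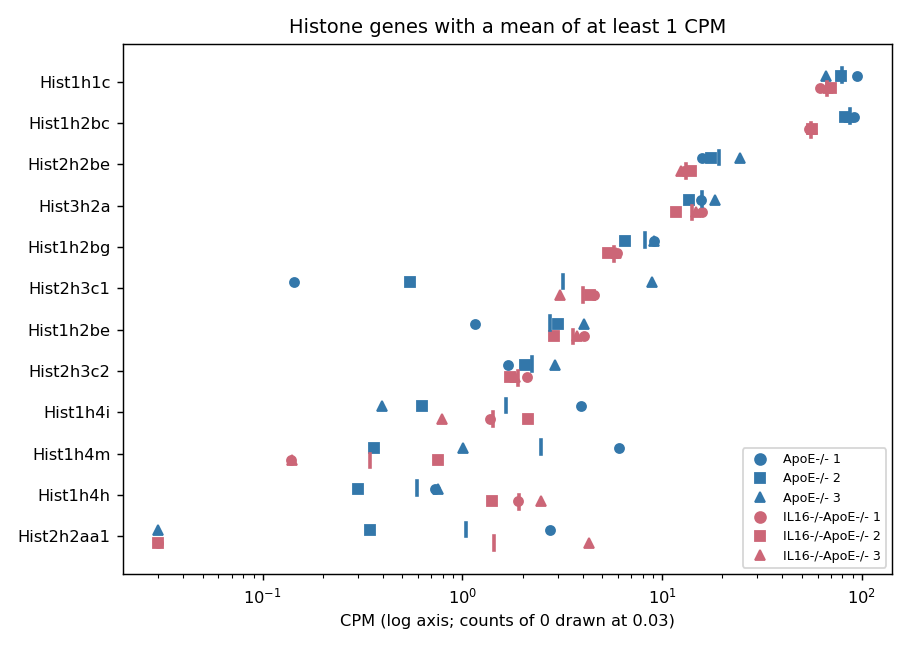
CPM (horizontal log axis, with counts of 0 drawn at 0.03) of the 12 members with a mean of at least 1 CPM; a symbol is 1 library, blue for ApoE-/- and red for double mutants, and a vertical bar is the group mean. Hist1h2bc is apart between groups, Hist1h4h lies higher in the double mutants, and Hist2h3c1, Hist1h4m and Hist2h2aa1 scatter widely within a group.

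For H3, the class summed to 3.00, 3.87 and 13.1 CPM in the ApoE-/- libraries and 7.47, 7.45 and 6.40 CPM in the double mutants, and ApoE-/- libraries lay on both sides of the double mutants. The spread came mostly from Hist2h3c1, at 0.143, 0.545 and 8.87 CPM against 4.56, 4.37 and 3.09 CPM. Its log2 fold change of 0.33 (SE 1.29) turned to -0.24 without ApoE-/- 1 and to -0.16 without ApoE-/- 2, and was 3.54 at most over 14 alternatives. Hist2h3c2 was even, at 1.69, 2.05 and 2.92 CPM against 2.10, 1.74 and 1.84 CPM (log2 fold change -0.23, SE 0.35). Hist1h3d was at 0.369 to 0.504 CPM in all 6 libraries, and the groups overlapped. Hist1h3f, which had the smallest p of the H3 genes, had 0.0574 to 0.211 CPM in ApoE-/- libraries and 0.0922 to 0.525 CPM in the others (log2 fold change 1.23 with SE 0.97, edgeR adjusted p = 0.557, n = 3 and 3).

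The scatter of Hist2h3c1 was shared with other annotations at its locus on chromosome 3. Hist2h2aa1 (an H2A gene, chr3:96245497-96246082, plus strand) and Hist2h3c1 (chr3:96246685-96248509, plus strand) both overlap the non-coding transcript Gm20634 on the same strand, the second wholly within it, and Gm20633 runs antisense to Hist2h2aa1. All of the 50-base stretches of both histone genes occur in those overlapping transcripts. Hist2h2aa1 was at 2.74, 0.344 and 0 CPM in ApoE-/- 1, 2 and 3, against 0, 0 and 4.28 CPM in the double mutants. Gm20634 was at 10.9, 14.5 and 1.91 CPM against 4.95, 3.44 and 8.24 CPM, and Gm20633 at 1.52, 2.88 and 8.84 CPM against 5.85, 7.68 and 0.791 CPM. Each annotation thus varied several-fold between libraries of 1 group. Their sum did not: it was 15.3, 18.3 and 19.6 CPM in ApoE-/- and 15.4, 15.5 and 16.4 CPM in double mutant libraries. Nearby, Hist2h2aa2 had no count in any library while its antisense annotation Gm20632 was at 8.94 to 12.1 CPM in all 6. The sources used here do not give the counting program or whether it used strand, so the separate values of these genes are uncertain.

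**Figure D4:**
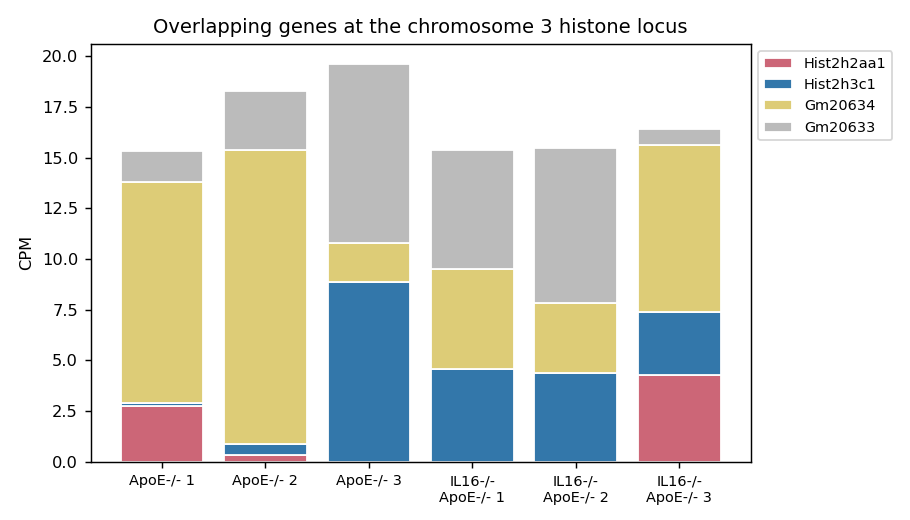
CPM of the 4 overlapping annotations at the chromosome 3 histone locus in each library, stacked (vertical axis from 0). The coloured shares change from library to library, while the bar height stays between 15.3 and 19.6 CPM.

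H4 genes, which encode the most conserved of the core histones, summed to 13.2, 2.95 and 3.01 CPM in ApoE-/- 1, 2 and 3, against 4.75, 5.58 and 5.17 CPM in the double mutants, so that ApoE-/- 1 lay above and the other ApoE-/- libraries below the double mutants. Hist1h4m was at 6.05, 0.359 and 1.01 CPM against 0.138, 0.756 and 0.140 CPM (log2 fold change -2.83 with SE 1.24, edgeR adjusted p = 0.332, n = 3 and 3). It shares 89.8% of its stretches with other genes, Hist1h4n among them, and the sum of that pair was 7.51, 0.588 and 1.26 CPM against 0.184, 0.987 and 0.303 CPM, high in ApoE-/- 1 like Hist1h4m alone. Hist1h4i was also highest in ApoE-/- 1, at 3.93, 0.631 and 0.398 CPM against 1.38, 2.12 and 0.791 CPM. Its log2 fold change of -0.21 (SE 0.92) became 1.47 without ApoE-/- 1.

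Hist1h4h lay on the other side from the abundant H2B genes. It was at 0.728, 0.301 and 0.758 CPM in ApoE-/- 1, 2 and 3, against 1.89, 1.41 and 2.47 CPM in the double mutants, each of which exceeded each ApoE-/- library. The fitted log2 difference was 1.68 (SE 0.51, n = 3 and 3, adjusted p = 0.196 by edgeR's quasi-likelihood test). DESeq2 placed it past the threshold (1.69, adjusted p = 0.0216), the only 1 of the 15 alternatives to do so, in a range of 0.0216 to 0.529. Hist1h4h shares 45.8% of its stretches with other genes, Hist1h4j among them.

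Since the libraries were captured by poly(A) tails, the members were also sorted by how the longest annotated protein-coding transcript of each ends. Those in which the transcript runs on for more than 100 bases behind the hairpin (23 genes) held 53.6% of the summed member level, and 17 of them could be tested. Genes without a hairpin in the transcript that end more than 100 bases after the stop codon (5 genes, all of H2B, including Hist1h2bc and Hist2h2be) held 43.1%, and 4 were tested. Of these, Hist1h2bp, Hist1h2bq and Hist1h2br have 2 annotated protein-coding transcripts each, and the shorter was not searched for a hairpin. The 22 genes whose transcript ends within 100 bases of the hairpin, the form closest to the classic replication-dependent mRNA, held 2.84%, and 5 were tested. The last 17 have no hairpin in the annotation and end under 100 bases after the stop codon. They held 0.436%, and none was tested. The poly(A) signal AATAAA stood in the last 40 bases of the transcript in 10 of 23, 4 of 5, 0 of 22 and 0 of 17 genes of these groups. Among the 5 most abundant members, Hist1h1c, Hist3h2a and Hist2h2be had this signal there. Hist1h2bc, which held most of the level of the long ends without a hairpin, did not, nor did Hist1h2bg.

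Per length, the median mean level was 0.303 CPM per kb for genes that run on behind the hairpin, 0.438 for the long ends without a hairpin, 0.174 for genes ending at the hairpin and 0.0830 for the short ends without it. These medians are taken over genes and divided by length, so they cannot be set directly against the shares of the summed level. Hist1h2bc (61.7 CPM per kb) and Hist1h1c (46.9) were the most abundant genes of the long groups. Both exceeded the highest gene ending at the hairpin, Hist1h4m at 3.50 CPM per kb. Between groups of mice, the 5 genes without a hairpin and with long ends summed to 109, 101 and 112 CPM in ApoE-/- and 68.2, 71.5 and 69.9 CPM in double mutant libraries (ratio 0.651), and those running on behind the hairpin to 133, 109 and 113 against 99.3, 103 and 103 CPM (ratio 0.860). Genes ending at the hairpin summed to 12.7, 2.42 and 3.63 against 4.03, 3.42 and 8.84 CPM and overlapped. The limit of 100 bases was chosen after the sequences had been seen; Hist1h3c, with 74 bases behind the hairpin and 0.0426 CPM per kb, lay nearest inside it, and Hist1h4a, with 108 bases and 0.126 CPM per kb, nearest outside.

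**Figure D5:**
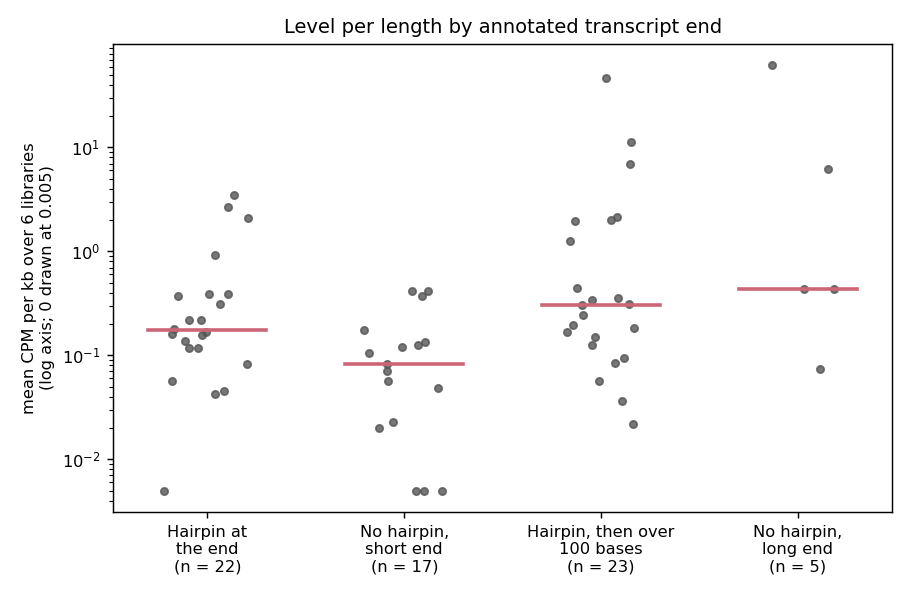
Mean CPM per kb over the 6 libraries (vertical log axis, with 0 drawn at 0.005) of all 67 members by the form of the annotated transcript end; a point is 1 gene and a red bar is the median. The 5 most abundant members, at 6.18 to 61.7 CPM per kb, all have long ends, and the groups otherwise overlap.

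Many H2A and H2B genes start back to back and share 1 stretch of promoter. There were 12 such pairs in the annotation, with starts 176 to 306 bases apart. In 3 pairs the H2B gene stood far above its partner: Hist2h2ac and Hist2h2be stood at 0.217 and 6.18 CPM per kb (ratio 28.5), Hist1h2ae and Hist1h2bg at 0.166 and 11.3 (ratio 68.0), and Hist1h2ac and Hist1h2bc at 0.245 and 61.7 (ratio 252). The H2A genes of these pairs had 48, 39 and 256 counts over the 6 libraries, and the H2B genes 6273, 2717 and 27835. Not divided by length, the means in the same order were 0.113 and 16.2, 0.117 and 6.98, and 0.608 and 71.3 CPM. The size and order of the ratios thus depend on the annotated lengths, such as 2482 bases for Hist1h2ac and 520 for Hist2h2ac. Because Hist1h2bg and Hist1h2bc share stretches, part of the Hist1h2bg count may belong to Hist1h2bc. The mean over all libraries was also higher for H2B in the other 9 pairs, but rested on few counts. Hist1h2ai and Hist1h2bl had 9 counts each, and in the ApoE-/- group alone the H2A gene had the higher mean (0.0286 against 0.0169 CPM). Hist1h2an had 3 counts in all, and Hist1h2aa and Hist1h2ba had 0 and 2.

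The promoter of Hist1h2bg is shown because its window of 250 bases before and 50 after the start spans the whole stretch between it and Hist1h2ae, which differ by that ratio of 68.0. It is from RefSeq on GRCm38.p6 (there H2bc8), chr13:23571150-23571449, plus strand, with CCAAT on either strand, the octamer ATTTGCAT and TATAAA in capitals.
Hist1h2bg promoter: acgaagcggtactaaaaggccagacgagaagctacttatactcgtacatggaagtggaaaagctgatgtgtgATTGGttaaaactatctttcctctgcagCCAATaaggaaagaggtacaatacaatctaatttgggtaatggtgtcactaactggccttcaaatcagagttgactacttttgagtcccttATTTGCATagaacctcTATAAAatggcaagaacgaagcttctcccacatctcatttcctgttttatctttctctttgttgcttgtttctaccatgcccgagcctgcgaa
RefSeq promoters matched 61 of the 67 members by strand and start. CCAAT, searched on both strands like the others, was in 100% of the H1, H2A, H2B and H3 promoters matched (5, 18, 16 and 10) but in 25% of 12 H4 promoters, against 37.9% of 27025 promoters of all genes. TATAAA was in 55.7% of member promoters against 14.2% of all. The octamer ATTTGCAT was in 38.9% of H2A and 37.5% of H2B promoters and in none of H1, H3 and H4, against 1.75% of all. H2A and H2B windows of 1 pair overlap and count the same letters more than once. The 3 motifs do not share letters.

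Several replacement histones, whose mRNAs carry poly(A) tails, stood far above most members per length. H3f3b and H3f3a, both encoding H3.3, stood at 122 and 91.4 CPM per kb, the H2A.Z gene H2afz at 58.2 and the linker histone gene H1f0, known from non-dividing cells, at 48.7. Only Hist1h2bc (61.7) and Hist1h1c (46.9) among the members came near these levels. None of the 11 replacement genes passed edgeR's test, 0 had an unadjusted p under 0.05, and DESeq2 and limma-voom, with or without sample weights, called none. Their median log2 fold change was -0.02. Those with the smallest p were H2afx, the variant phosphorylated at DNA breaks, at 14.8, 8.96 and 14.3 CPM against 9.77, 7.85 and 8.54 CPM (log2 fold change -0.54, SE 0.25), and H2afj, at 15.7, 9.71 and 17.4 CPM against 19.2, 17.6 and 20.8 CPM (0.43, SE 0.25). Without ApoE-/- 1, H2afz was called higher (0.40, adjusted p = 0.0325 by edgeR), 1 of 11 where 13.1% of all genes were called.

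Genes that make, trim and degrade histone mRNA were tested as a list of 20, of which 18 matched a symbol. None passed edgeR's test; at an unadjusted p under 0.05, 1 was higher and 2 were lower, close to the 8.87% and 7.03% of all tested genes, and the median log2 fold change was -0.15. Npat, the coactivator of histone genes that is activated in S phase, stood at 21.7, 26.1 and 29.9 CPM in ApoE-/- libraries against 12.9, 14.8 and 16.1 CPM in double mutant libraries. The groups did not overlap (log2 fold change -0.83 with SE 0.19, edgeR adjusted p = 0.110, n = 3 and 3). DESeq2 (adjusted p = 0.00388), limma-voom with sample weights (0.0193) and edgeR without ApoE-/- 1 (0.00988) each called Npat lower. Without ApoE-/- 1, 3 of the 18 were called lower: Npat, Upf1 (-0.58) and Ncbp2 (-0.44), the last 2 with roles in mRNA decay and cap binding. In that fit 12.8% of all genes were called lower, so this count is near the background. Zfp473, which encodes a protein of the U7 processing complex, was at 0.835, 0.545 and 1.35 CPM against 0.415, 0.147 and 0.326 CPM (log2 fold change -1.62, SE 0.63). Slbp, the hairpin-binding protein, was even at 22.3 to 33.2 CPM against 27.4 to 28.5 CPM. The list summed to 580 to 689 CPM in ApoE-/- and 553 to 557 CPM in double mutant libraries, without overlap. For 7 of the 18 genes the highest double mutant value was under the lowest ApoE-/- value, against 11.5% of all tested genes. The reverse held for 1 of the 18, against 14.9%. By this count the list thus leaned to lower values more than the background did, but that difference was not tested.

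Histone chaperones, which carry histones to DNA, gave 0 of 8 genes past edgeR's test, 0 at an unadjusted p under 0.05 and 0 by DESeq2 and both limma-voom fits, with a median log2 fold change of -0.12. The smallest p were those of Nap1l1, at 158, 204 and 246 CPM against 155, 144 and 155 CPM, and Chaf1a, at 14.2, 11.9 and 10.1 CPM against 8.50, 7.58 and 10.7 CPM. The list summed to 267 to 351 CPM and 240 to 252 CPM. Without ApoE-/- 1, Nap1l1 was called lower (-0.57, adjusted p = 0.0209 by edgeR), 1 of 8 where 12.8% of all genes were called.

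Of 24 genes of S phase and proliferation, 0 passed edgeR's test, 1 had an unadjusted p under 0.05 (higher), and DESeq2 and limma-voom called 0, with a median log2 fold change of -0.09. Their sum was 428, 336 and 215 CPM in ApoE-/- 1, 2 and 3 and 299, 337 and 321 CPM in the double mutants, so the groups overlapped. Tyms, thymidylate synthase, had the smallest p, at 5.60, 4.06 and 2.85 CPM against 7.44, 8.46 and 7.56 CPM (log2 fold change 0.91 with SE 0.31, edgeR adjusted p = 0.239, n = 3 and 3). limma-voom with sample weights called it higher (adjusted p = 0.0404). Mcm6, of the replicative helicase, was next, at 36.2 to 52.9 CPM over all libraries. Mki67, the proliferation marker, was chosen after its values were seen: it was at 8.49 CPM in ApoE-/- 3 and at 22.7 to 48.9 CPM in the other libraries. With ApoE-/- 1 left out, the list's median turned to 0.38 and 3 of 24 genes, Pcna, Tyms and Cdk1, were called higher, close to the 13.1% of all genes called higher in that fit. The part of proliferation in the histone values was not tested.

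Other RNAs that lack a poly(A) tail were also present in these libraries, at low levels for most. Rmrp and Terc had no count in any library, Rnu7 (the U7 RNA) had 1 count in each, and Rn7sk was at 0.215 to 1.52 CPM. Malat1, whose end is protected by a triple helix and which holds an internal stretch of A, was at 566 to 1199 CPM. No gene of this list of 6 passed edgeR's test among the 3 tested, 0 had an unadjusted p under 0.05, and DESeq2 and both limma-voom fits called none. Summed over 1383 annotated small nuclear RNA genes the level was 8.39, 7.14 and 8.90 CPM in ApoE-/- libraries and 3.69, 4.83 and 4.44 CPM in double mutants, without overlap. The other kinds summed all overlapped between groups. Small nucleolar RNAs were at 15.3 to 20.6 against 17.2 to 19.9 CPM, and small Cajal body RNAs at 0.680 to 1.26 against 1.20 to 1.76 CPM. Mitochondrial rRNA was at 2160 to 4204 against 2084 to 3011 CPM, and mitochondrial tRNA at 276 to 481 against 365 to 443 CPM. The part of capture in the histone values was not tested.

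Cell type markers also moved with the groups. The 5 kidney tubule markers were all called higher in the double mutants by edgeR, where 1.14% of all genes were, and so was Lep of 5 adipocyte markers. The kidney markers were chosen with earlier results known and had at most 4 counts in an ApoE-/- library. They entered the test only through the double mutants, so the count of kidney calls is no independent result. None of 5 smooth muscle, 5 macrophage, 5 T cell, 5 B cell, 6 erythroid or 3 tested thymocyte markers was called. At an unadjusted p under 0.05, 2 B cell, 3 erythroid and 2 thymocyte genes were higher (8.87% of all tested genes). DESeq2 called 2 B cell, 1 erythroid and 1 thymocyte gene higher, as it did 6.25% of all genes. limma-voom with sample weights called 3 smooth muscle genes lower (7.49% of all genes) and 1 macrophage, 1 thymocyte and 5 adipocyte genes higher (9.39%). Without ApoE-/- 1, edgeR called all 5 smooth muscle markers lower (12.8% of all genes) and all 5 adipocyte markers higher (13.1%). Sums overlapped between groups for smooth muscle (4172 to 26665 against 8352 to 9464 CPM), macrophage (331 to 4192 against 4048 to 5785), T cell (1.24 to 24.4 against 13.0 to 20.6) and adipocyte markers (568 to 4477 against 4331 to 4671). They were higher in every double mutant library for erythroid (1039 to 4708 against 5015 to 13422), B cell (3.95 to 33.3 against 35.6 to 54.1) and thymocyte markers (1.50 to 9.57 against 16.8 to 22.1 CPM). Most of the thymocyte sum was Cd4 (1.45 to 9.52 against 11.8 to 19.4 CPM), which is not confined to thymocytes. Rag1 was at 0 to 0.316 against 1.91 to 2.82 CPM, and Ptcra had no count. The part of other cells in the lower H2B level of the double mutants was not tested.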

How the data were processed

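Poly(A) RNA for 6 aorta libraries was captured on oligo(dT) beads and made into strand-marking libraries, per the labels' protocols. The submitters' processing notes name cutadapt, HISAT2 and StringTie but no version of them. The authors deposited raw counts per gene, judged from whole numbers and unequal totals; the sources used here do not give how reads were assigned to genes, nor the strand, build and annotation used. Of 55401 IDs, 260 had no GENCODE M21 symbol.

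edgeR 4.0.16 in R 4.3.3 kept 19833 genes (filterByExpr, minimum count 10, minimum total 15), scaled them by TMM and compared 3 with 3 libraries by a two-sided quasi-likelihood test (robust, no covariate), with Benjamini-Hochberg adjustment over all of them and a threshold of 0.05. An SE is the fold change divided by the root of F. The test was run on simulated data with a single dispersion for every gene and no deviating library, so that check does not cover the scatter of these libraries. Alternatives were other scalings and filters, DESeq2 1.42.0, limma-voom 3.58.1, a replicate block and leaving out each library. CPM are TMM-scaled; CPM per kb divides by the longest protein-coding transcript. Figures used Python 3.11.15 and matplotlib 3.10.9.

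Members and lists were chosen with earlier results of these data known. Named are members past the threshold, the 20 with the highest mean CPM and the smallest p in each class, and from each other list up to 4 called genes or the 2 with the smallest p. Some genes chosen after their values were seen are marked so. Slbp, H3f3b, H3f3a and H1f0 are also named outside that rule, without such a mark, and should be read the same way. The deleted genes and the sex-linked genes are label checks.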

Additional observations from a re-analysis of the deposited data

How the results depend on the processing

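Counts over all genes moved most. Higher and lower calls were 226 and 12 as reported, 1235 and 462 with DESeq2, 362 and 20 with limma-voom, and 1862 and 1486 with sample weights. Leaving out 1 library gave 0 to 2651 higher and 0 to 2580 lower: 0 and 0 without any 1 double mutant library, and the most without ApoE-/- 1. With the number in the titles as a replicate block, 0 genes were called higher and 0 lower, and no histone gene. Libraries of the same number did not deviate together (r = -0.04, -0.03 and -0.01). With so few pairs this cannot show whether the numbers mark pairs, and the sources used here do not say. Histone calls were 1 higher and 1 lower with DESeq2, 1 lower with sample weights, and 0 to 2 lower with 1 library left out. The median over histone genes was 0.11 without a filter on low counts, where 63 instead of 26 were tested; elsewhere it ran from -0.37 to -0.01. The ratio of summed CPM ran from 0.736 to 0.802.

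Directions turned for genes with wide scatter, none of which passed the test. Hist1h4i was at 0.39 with limma-voom, 0.88 with sample weights and 0.45 with the block, and ran from -0.67 to 1.47 with 1 library left out, above 0 without ApoE-/- 1 and at 0.08 without double mutant 3. Hist2h2aa1 was at -1.26, -1.24 and -3.42 in those fits, and ran from -9.07 to 3.05 with 1 library left out. Hist1h1e was at -0.01 with sample weights and ran from -0.32 to 0.47 with 1 library left out, Hist2h3c1 from -0.24 to 3.54 and Hist2h3c2 from -0.40 to 0.01. The cause was not tested. The filter on low counts left out 41 members with 0 to 67 counts each over the 6 libraries.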
